A study of Mus musculus with 6 samples.

Results

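The IL-6 family of cytokines, their receptor chains and the signalling genes STAT3 and SOCS3 were examined in mouse primary mesangial cells, which surround and hold the capillaries of the kidney filter. The members were 10 genes taken by symbol from the RNA-Seq table: the cytokines Il6, Il11, Lif and Clcf1, the receptor chains Il6st, Lifr, Osmr and Il11ra1, the transcription factor Stat3 and the feedback inhibitor Socs3. Each of the 10 had 1 row among the 19730 rows of the table. There were 3 Control and 3 TGF-β1 libraries from cells kept in DMEM with 25.5 mM glucose and 20% serum and used at passages 3 to 6, and the TGF-β1 cells were given the cytokine at 10 ng/ml for 72 h. No genotype, strain or animal age was given for the cells, and it was not stated whether the triplicates were separate cultures, so p-values measure only the spread between these libraries.

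Cytokines of this family share gp130, encoded by Il6st, as the receptor chain that carries the signal into the cell. IL-6 and IL-11 first bind a chain of their own and then engage gp130, LIF pairs gp130 with LIFR, and oncostatin M pairs it with OSMR in the mouse. The engaged receptors activate JAK kinases, which phosphorylate STAT3, and STAT3 induces SOCS3, which in turn shuts the receptor complex down. Mesangial cells are a known source of IL-6, and IL-11 is a known product of fibroblast-like cells exposed to TGF-β.

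Levels are FPKM (fragments scaled to transcript length and to the mapped fragments of the library), which can be compared between genes per unit length. Depth recovered from the lowest FPKM values was 10.1 to 11.1 M fragments per library. The treated libraries carried the known TGF-β response. Ctgf and Smad7 were 24.0 and 3.31 times higher on average, with adjusted p of 9.54e-05 and 1.62e-04 (limma). Of 8 mesangial markers, 4 had a mean of at least 1 FPKM. Acta2 and Tagln were abundant and rose 3.90-fold and 3.43-fold with TGF-β1, and Cspg4 rose from 0.0735 to 1.21 FPKM. Pdgfrb fell from 37.5 ± 4.82 to 29.2 ± 0.751 FPKM, Gata3 was at 0.756 to 2.42 FPKM, Des stayed at or below 0.550 FPKM, Itga8 at or below 0.174 FPKM and Thy1 at or below 0.180 FPKM in every library. The replicate 2 libraries of both groups stood apart from the others: in 46 of 10791 protein-coding rows both lay at least 2-fold under each of the other 4 libraries. No member was among the 46. Where the call of a member or listed pathway gene named here changed without these libraries (within replicates 1 and 3), this is stated. In cells measured in bulk, fewer cells of a type and less RNA per cell cannot be told apart.

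The start regions of the risen cytokine genes and of Socs3 are shown first, since they hold the motif matches described here. They are the 250 bases before the RefSeq start, written 5′ to 3′ on the strand of the gene and found once on that chromosome of mm9. Capitals mark a match to the AP-1 motif TGANTCA in Il6, Il11 and Lif and to the STAT motif TTCNNNGAA in Socs3. The windows are Il6 chr5:30339404-30339653 (plus strand), Il11 chr7:4729744-4729993 (minus), Lif chr11:4157321-4157570 (plus) and Socs3 chr11:117830681-117830930 (minus).
Il6: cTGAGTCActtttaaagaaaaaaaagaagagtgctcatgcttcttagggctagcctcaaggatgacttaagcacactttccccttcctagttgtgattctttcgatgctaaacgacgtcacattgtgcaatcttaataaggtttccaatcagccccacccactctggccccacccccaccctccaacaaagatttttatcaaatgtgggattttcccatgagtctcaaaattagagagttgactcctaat
Il11: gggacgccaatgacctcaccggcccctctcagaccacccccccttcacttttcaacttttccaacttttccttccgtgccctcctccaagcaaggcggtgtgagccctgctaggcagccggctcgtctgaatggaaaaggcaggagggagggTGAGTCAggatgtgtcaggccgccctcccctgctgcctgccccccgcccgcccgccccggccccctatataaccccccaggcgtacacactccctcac
Lif: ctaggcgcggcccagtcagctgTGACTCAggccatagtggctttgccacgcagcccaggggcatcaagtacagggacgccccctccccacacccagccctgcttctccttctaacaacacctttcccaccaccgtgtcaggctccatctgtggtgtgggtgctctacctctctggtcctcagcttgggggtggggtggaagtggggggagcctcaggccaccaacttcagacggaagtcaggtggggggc
Socs3: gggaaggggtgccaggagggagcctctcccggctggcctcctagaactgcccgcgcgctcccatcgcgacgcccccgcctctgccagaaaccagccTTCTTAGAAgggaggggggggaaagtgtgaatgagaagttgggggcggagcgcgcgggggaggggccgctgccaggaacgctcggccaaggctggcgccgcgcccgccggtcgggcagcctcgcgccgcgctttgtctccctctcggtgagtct

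RefSeq promoters of GRCm38.p6 (250 bases before to 50 after the start) were found for 9 of the 10 members, 12 promoters in all, and were searched on both strands. None was found for Clcf1. The AP-1 motif was present as TGAGTCA at -249 in Il6 and -98 in Il11, as TGACTCA at -228 in Lif, and as TGATTCA at 4 in Osmr, where position 1 is the start. It was present in 7.81% of all 32851 promoters. The STAT motif was found in 1 of the 12, that of Socs3, as TTCTTAGAA at -154, against 8.30% of all promoters. The share among members was thus near that of all promoters. The RefSeq start of Socs3 lies at -180 nt relative to the start of the transcript listed for Socs3. The SMAD motif GTCTAGAC was found in none of the 12, against 0.213% of all promoters. These matches describe letters in a window and do not show binding.

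With TGF-β1 the cytokines Il11 and Lif rose and Il6 appeared from a listed 0, whereas the cytokine Clcf1, all 4 receptor chains, Stat3 and Socs3 fell. The decrease was largest for Osmr, at 8.47-fold, and the increase among tested members was largest for Il11, at 12.9-fold. Expression was tested with limma on log2(FPKM + 1) over the 11898 rows with a mean of at least 1 FPKM, and an adjusted p under 0.05 was called changed. All 9 members that passed this filter were called, 2 upregulated and 7 downregulated, where 48.1% of all tested rows were called, 24.5% upwards and 23.6% downwards. Groups did not overlap in any of the 9, against 59.4% of all tested rows. The members were chosen with earlier results of these data known, so these shares are a description and not a test of the family. Il11 and Lifr passed the filter only through the group in which they were high, and Il6 did not pass it. The median log2 change of the 9 was -1.06, and that of all tested rows was -0.02.

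**Figure D1:**
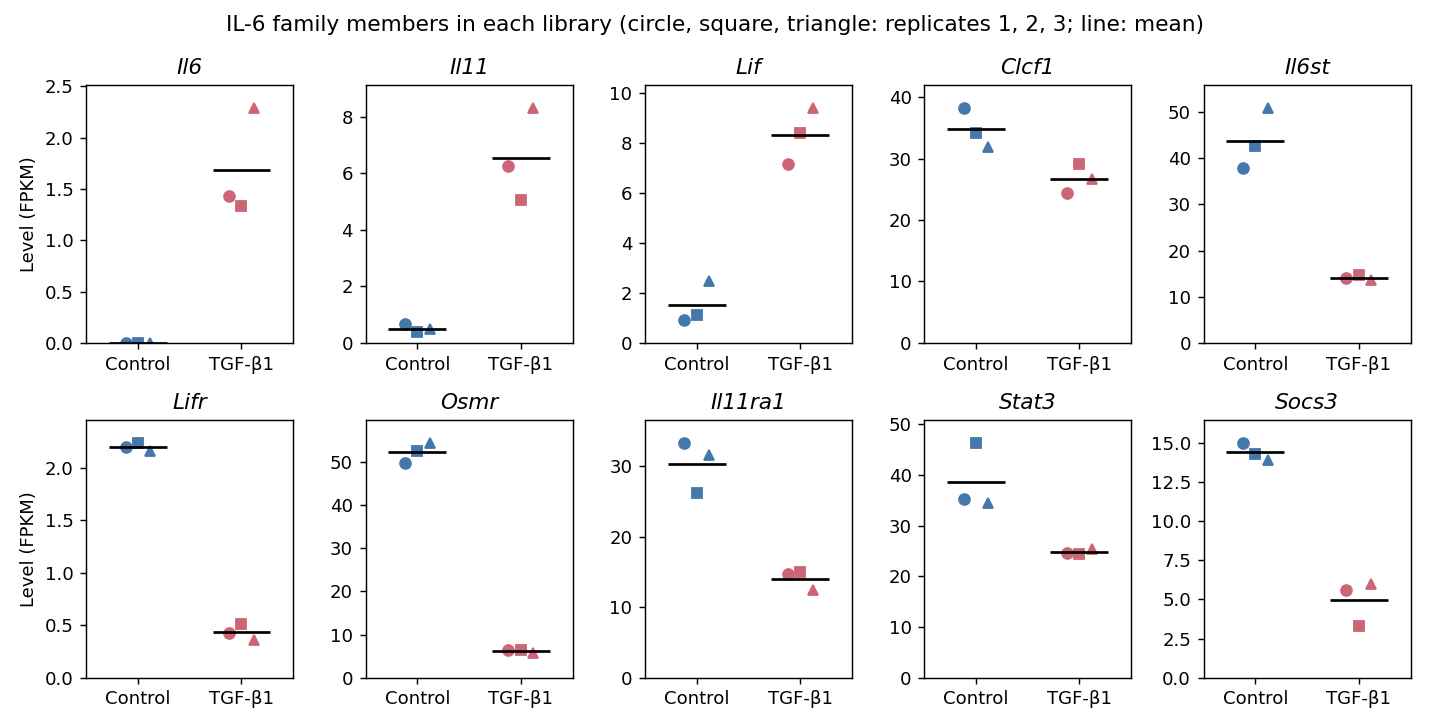
Level of each IL-6 family member in FPKM (vertical axes, each from 0) in 3 Control and 3 TGF-β1 libraries, with circles, squares and triangles for replicates 1, 2 and 3 and a line at the group mean. Il6, Il11 and Lif sit higher in every TGF-β1 library, and the other 7 members sit lower.

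The cytokines were examined first. Il6 (transcript ENSMUST00000026845, gene at mm9 chr5:30339701-30346508, plus strand, 5 exons), which encodes the inflammatory cytokine interleukin-6, was listed at 0 in all 3 Control libraries. With TGF-β1 it was at 1.44, 1.34 and 2.29 FPKM in replicates 1 to 3. At the recovered depth and the 1087 nt of its single annotated transcript, these values correspond to about 14, 12 and 22 fragments. A level of 3 fragments would have been 0.305 to 0.313 FPKM in the Control libraries. Il6 therefore stayed at a low level even in treated cells. It was called upregulated in the fit of all 19730 rows without the filter (log2 change 1.41, SE 0.14, limma adjusted p 0.00097), in which 14.6% of rows were called upwards. No fold is given, because the Control values are listed at 0.

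Markers of other cell types were read beside these values. Summed over the 7 of 9 listed markers with a row, macrophage markers were at 87.1 to 114 FPKM in Control and 9.11 to 11.4 FPKM with TGF-β1, most of it from Cd14. Of the 7, 3 had a mean of at least 1 FPKM, namely Cd14, Csf1r and Cd68. Csf1r fell from 6.27 ± 0.979 to 0.411 ± 0.156 FPKM (limma adjusted p 8.56e-05). Cd68 was at 2.79 ± 0.836 FPKM in Control and 2.22 ± 0.448 FPKM with TGF-β1 and was not called. Ptprc (CD45) was listed at 0 in each Control library and did not pass 0.0448 FPKM in the treated ones. In no library did Lyz2 pass 0.0811 FPKM or Cx3cr1 pass 0.282 FPKM. Itgam was listed at 0 in 4 of the 6 libraries and was at most 0.359 FPKM. Epithelial markers (4 of 5 with a row) summed to 32.2 to 33.8 FPKM in Control and 2.08 to 2.53 FPKM with TGF-β1, where Cldn2 fell from 32.5 ± 0.831 to 0.579 ± 0.0251 FPKM and Krt18 rose from 0.279 ± 0.120 to 1.57 ± 0.219 FPKM. Podocyte markers (4 of 4) summed to 13.8 to 15.4 and 8.51 to 10.1 FPKM. Endothelial markers (5 of 5) summed to 0.502 to 0.646 FPKM and 0.204 to 0.474 FPKM, and T cell markers (2 of 5) to 0.466 to 1.303 FPKM and 0.545 to 0.943 FPKM. The part of these marker levels in the members' changes was not tested.

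Il11 (ENSMUST00000094892, chr7:4724669-4734460, minus strand, 5 exons), the gp130 cytokine interleukin-11, was at 0.657, 0.377 and 0.484 FPKM in Control and at 6.25, 5.06 and 8.30 FPKM with TGF-β1. The lowest treated library was well above the highest Control library. Its log2 change was 2.31 (SE 0.18, limma adjusted p 1.91e-04), and 1.12% of tested rows rose by as much or more. The Control values rest on few fragments, about 7.69, 4.40 and 5.51 in the 3 libraries.

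Lif (ENSMUST00000066283, chr11:4157560-4172517, plus strand, 4 exons) encodes leukemia inhibitory factor, which signals through LIFR and gp130. It was at 0.906, 1.13 and 2.46 FPKM in Control and at 7.16, 8.40 and 9.38 FPKM with TGF-β1. Control replicate 3 was the highest of its group but still lay far below the treated libraries. The mean rose 5.54-fold (log2 change 1.94, SE 0.24, limma adjusted p 0.00112).

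Clcf1 (ENSMUST00000046506, chr19:4214238-4223490, plus strand, 3 exons), cardiotrophin-like cytokine factor 1, was the only abundant cytokine of the 4 in Control. It was at 38.2, 34.2 and 31.9 FPKM in Control and at 24.4, 29.1 and 26.7 FPKM with TGF-β1. The groups did not overlap, but their nearest libraries were close. Its log2 change was -0.37 (SE 0.103, limma adjusted p 0.0271), and 27.7% of tested rows fell by as much or more. With the replicate number as a block the adjusted p was 0.0579, and it was also lost without Control replicate 1 (0.0747), Control replicate 2 (0.0664), TGF-β1 replicate 1 (0.0933) or TGF-β1 replicate 3 (0.0743), within replicates 1 and 3 (0.0649), and after a correction for GC content and length (0.0909). Over all its alternatives the adjusted p was 0.00467 to 0.0933.

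Among the other ligands of the family, Ctf1 (cardiotrophin-1) was at 9.94 to 16.8 FPKM in Control and 6.20 to 8.30 FPKM with TGF-β1 (log2 change -0.75, limma adjusted p 0.0205). The Ctf1 call was lost without Control replicate 3, TGF-β1 replicate 1 or TGF-β1 replicate 2, with adjusted p up to 0.0704. The ligand genes Ctf2, Il27 and Ebi3 were under the filter, at no more than 0.756 FPKM in any library, and were not called. Osm, Cntf and Il31 had no row and were not analysed here.

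**Figure D2:**
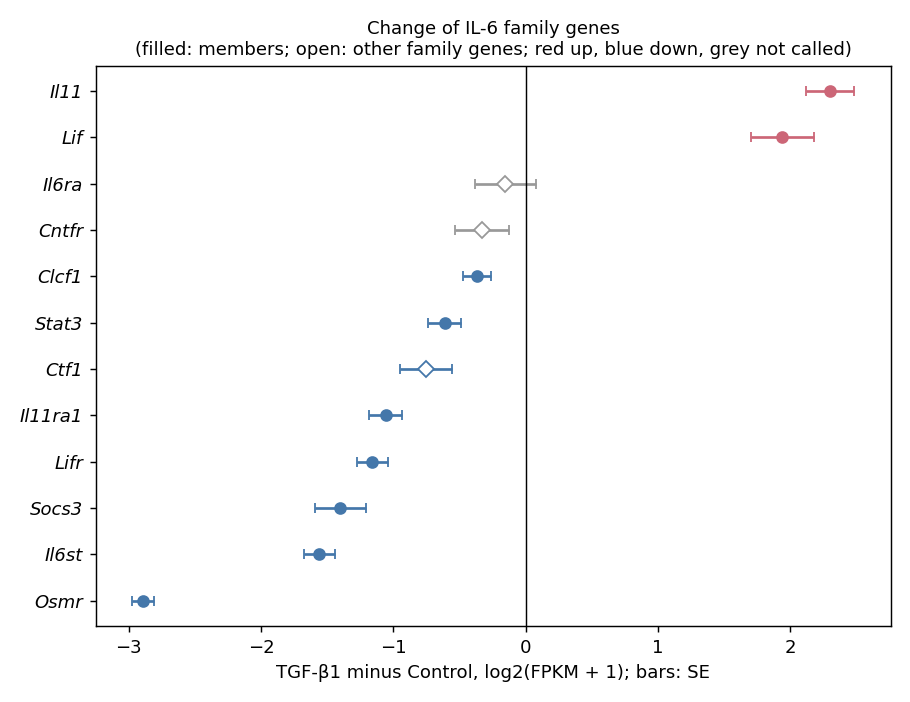
Change in log2(FPKM + 1) with TGF-β1 (horizontal axis, bars are the SE of the limma fit) for the 9 tested members (filled circles) and 3 other family genes (open diamonds), in red where called upwards, blue where called downwards and grey where not called. Il11 and Lif lie to the right of 0, and Osmr lies farthest to the left at -2.89.

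The receptor chains fell together. Osmr (ENSMUST00000022746, chr15:6763577-6824313, minus strand, 18 exons), the oncostatin M receptor, was the most abundant member in Control at 49.9, 52.5 and 54.4 FPKM. With TGF-β1 it was at 6.37, 6.52 and 5.62 FPKM. Both groups were tight and far apart (log2 change -2.89, SE 0.084, limma adjusted p 6.94e-06), and 0.992% of tested rows fell by as much or more.

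Il6st (ENSMUST00000070731, chr13:113265216-113297068, plus strand, 15 exons), the shared chain gp130, was at 37.9, 42.7 and 50.8 FPKM in Control and at 14.0, 14.7 and 13.5 FPKM with TGF-β1. Each treated library was below 15 FPKM whereas each Control library was above 37 FPKM. The mean was 3.11-fold lower (log2 change -1.56, SE 0.118, limma adjusted p 1.66e-04).

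Lifr (ENSMUST00000067190, chr15:7079559-7147489, plus strand, 20 exons), the LIF receptor, was a low-level chain. It was at 2.20, 2.24 and 2.16 FPKM in Control and at 0.427, 0.515 and 0.358 FPKM with TGF-β1. The treated mean was 5.07-fold lower (log2 change -1.16, SE 0.115, limma adjusted p 4.52e-04). Because the level is low, the log2(FPKM + 1) scale understates this change.

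Il11ra1 (ENSMUST00000108041, chr4:41647021-41716347, plus strand, 14 exons), the chain that binds IL-11, was at 33.3, 26.3 and 31.6 FPKM in Control and at 14.8, 15.0 and 12.4 FPKM with TGF-β1. All 3 treated libraries were below all 3 Control libraries (2.16-fold lower, log2 change -1.06, SE 0.122, limma adjusted p 8.30e-04). Its value is less certain than those of the other chains. The annotated gene overlaps 6 other genes, among them Galt on the same strand, and the mouse genome holds near-identical copies, of which Il11ra2 was listed at 0.438 to 0.561 FPKM in Control and 0.147 to 0.159 FPKM with TGF-β1.

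The chains that confer response to IL-6 itself and to CNTF did not pass the test. Il6ra was at 1.06 to 2.59 FPKM in Control and 1.15 to 1.73 FPKM with TGF-β1 (log2 change -0.15, SE 0.231, limma adjusted p 0.613). Cntfr was at 3.53 to 5.65 and 2.37 to 3.90 FPKM (log2 change -0.33, SE 0.206, limma adjusted p 0.232). These 2 were the only other receptors that passed the filter, and 0 of the 2 had an unadjusted p under 0.05. In the fit without the filter, where 16.0% of rows were called downwards, Il11ra2 (limma adjusted p 0.00385) and Il27ra (0.00132) were called and Lepr and Csf3r were not. Il27ra lay between 0.405 and 0.442 FPKM in Control and did not pass 0.0752 FPKM in the treated libraries, so these calls concern very low levels. Il31ra had no row.

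The order of the members by level changed between the groups. In Control the order by mean was Osmr, Il6st, Stat3, Clcf1, Il11ra1, Socs3, Lifr, Lif, Il11 and Il6. Neighbours from Osmr to Il11ra1 overlapped in their libraries, as did Lifr and Lif, and the other neighbours did not. With TGF-β1 the order was Clcf1, Stat3, Il6st, Il11ra1, Lif, Il11, Osmr, Socs3, Il6 and Lifr. Clcf1 overlapped Stat3, Il6st overlapped Il11ra1, and each neighbour from Lif to Socs3 overlapped the next. Osmr thus moved from rank 1 to rank 7 in mean FPKM. The mean level of Osmr was above that of other genes as follows: of 15913 protein-coding rows (300 nt or longer), it exceeded 89.2% of rows in Control and 52.6% with TGF-β1. For Il6st these shares were 87.4% and 67.8%, and for Il11 they were 27.2% and 53.5%.

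**Figure D3:**
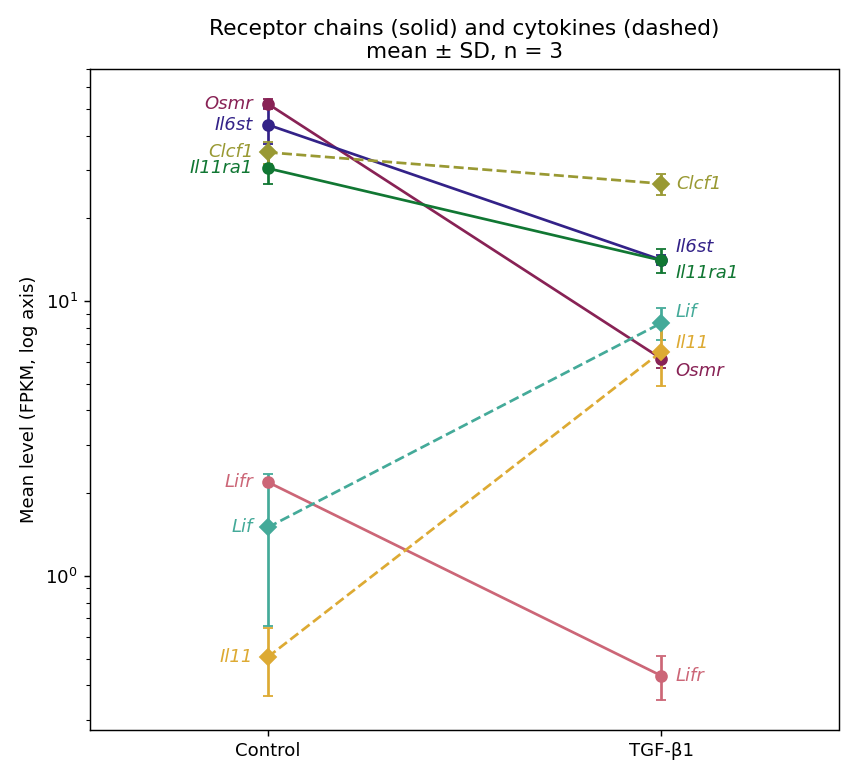
Mean level in FPKM (vertical log axis, bars are SD, n = 3) of 4 receptor chains (solid lines) and 3 cytokines (dashed lines) in Control and TGF-β1 libraries. Osmr falls from the top of the plot to the level of Il11, and Lif and Lifr start close together and end at 8.32 and 0.433 FPKM, while Il6, listed at 0 in Control, is not drawn.

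Members were compared within libraries in 3 pairs, as the difference in log2(FPKM + 1). Osmr exceeded Lifr by 4.06 ± 0.0704 in Control and by 2.32 ± 0.0429 with TGF-β1 (SD, n = 3), a change of -1.74. Il6st exceeded Lifr by 3.80 ± 0.218 and 3.40 ± 0.0224, a change of -0.40. Both values rest on the pseudocount, since Lifr is low and passed the filter only through Control: with log2(FPKM + 0.1) they were -0.95 and 0.50. Stat3 exceeded Socs3 by 1.35 ± 0.242 and 2.14 ± 0.365, a change of 0.79. In each pair the 3 libraries of one group lay beyond those of the other, and the two-sided exact permutation p was 0.1 (0.1 after adjustment over the 3 pairs), the smallest that 3 against 3 allows, so no pair could pass the threshold of 0.05.

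Downstream of the receptors, Stat3 (ENSMUST00000103114, chr11:100746412-100800854, minus strand, 24 exons) was at 35.2, 46.3 and 34.4 FPKM in Control and at 24.5, 24.4 and 25.4 FPKM with TGF-β1. Control replicate 2 was the highest library, and the groups did not overlap. The mean fell 1.56-fold (log2 change -0.61, SE 0.125, limma adjusted p 0.00843), and within replicates 1 and 3 the log2 change was -0.46 (limma adjusted p 0.0216). Its adjusted p was 0.00344 to 0.0337 over its alternatives. Stat3 overlaps Stat5a on the opposite strand.

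Socs3 (ENSMUST00000054002, chr11:117827393-117831361, minus strand, 2 exons), the feedback inhibitor, was at 15.0, 14.3 and 13.9 FPKM in Control and at 5.59, 3.29 and 6.01 FPKM with TGF-β1. Every treated library was below every Control library, and TGF-β1 replicate 2 was the lowest. The mean fell 2.91-fold (log2 change -1.40, SE 0.193, limma adjusted p 0.0017). Without TGF-β1 replicate 2 the log2 change was -1.18.

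The kinases, other STATs and adaptors of the pathway were read next. Of 10 such genes tested, 1 rose, 5 fell and 4 were not called, so 60% were called against 48.1% of all tested rows, with a median log2 change of -0.24. The one that rose was the phosphatase Ptpn11 (SHP2), from 20.6 ± 1.75 to 26.6 ± 1.90 FPKM (limma adjusted p 0.0235). This call was lost in 5 of 18 alternatives, including the fit within replicates 1 and 3. It was also lost without Control replicate 1, TGF-β1 replicate 2 or TGF-β1 replicate 3. Those that fell were Tyk2, Stat5a, Stat5b and the adaptors Gab1 (14.5 ± 0.897 to 9.01 ± 0.387 FPKM) and Shc1 (69.0 ± 1.70 to 51.8 ± 2.09 FPKM). The kinases Jak1 (40.1 ± 1.59 FPKM in Control and 43.3 ± 1.18 with TGF-β1) and Jak2 (6.77 ± 0.742 and 8.56 ± 0.657) were not called, at limma adjusted p of 0.249 and 0.0546, although Jak2 was called without Control replicate 3 (0.0306). Tyk2 fell from 5.30 ± 0.418 to 3.72 ± 0.252 FPKM (limma adjusted p 0.0141), a call that was lost within replicates 1 and 3 (0.0915). The largest changes on this list were those of the transcription factor Stat5a, from 3.99 ± 0.342 to 1.59 ± 0.233 FPKM (log2 change -0.95), and its paralogue Stat5b, from 4.65 ± 0.325 to 2.52 ± 0.245 FPKM (log2 change -0.69).

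Other inhibitors of JAK-STAT signalling were called about as often as all tested rows. Of 13 tested, 2 rose, 4 fell and 7 were not called (46.2% called against 48.1%), with a median log2 change of 0.04. Cish, a STAT5-induced member of the SOCS family, was at 14.2, 17.3 and 10.1 FPKM in Control and at 3.47, 4.59 and 3.75 FPKM with TGF-β1 (log2 change -1.57, SE 0.198, limma adjusted p 0.00122). Socs6 rose from 7.38 ± 0.281 to 15.3 ± 0.612 FPKM (log2 change 0.96, SE 0.076, limma adjusted p 1.95e-04). The other called genes changed less: Socs4 rose from 4.14 ± 0.0340 to 5.41 ± 0.634 FPKM, and Pias1, Pias3 and the phosphatase Ptpn1 fell, with log2 changes of -0.50, -0.24 and -0.44. The Socs4 call was lost in 13 of 18 alternatives and the Pias3 call in 8 of 18, each including single libraries left out. Within replicates 1 and 3 the Socs4, Pias3 and Ptpn1 calls were lost. Socs1, an inhibitor of JAK kinases, was at 2.56, 1.59 and 2.27 FPKM in Control and at 4.28, 0.679 and 3.98 FPKM with TGF-β1. It was not called (limma adjusted p 0.763), but was called upwards within replicates 1 and 3 (log2 change 0.59, adjusted p 0.0283) and without TGF-β1 replicate 2 (0.72, 0.0219). After a correction for GC content and transcript length, 2 of the 11 genes that could be fitted were called, both downwards, and Socs6 and Ptpn1 had no GC value and were not among the 11.

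Genes known as STAT3 targets had calls in both directions. Of 19 tested, 8 rose, 3 fell and 8 were not called (57.9% called against 48.1% of all tested rows), with a median log2 change of 0.10. Myc, a growth regulator, rose from 7.49 ± 0.628 to 35.6 ± 3.47 FPKM (log2 change 2.11, SE 0.103, limma adjusted p 3.53e-05). Bcl3, an NF-κB cofactor, fell from 13.0 ± 1.34 to 2.86 ± 1.03 FPKM (log2 change -1.88, SE 0.197, limma adjusted p 5.56e-04). The other genes that rose were the kinase Pim1, the cyclin Ccnd1, the survival gene Bcl2l1, Ier3, Timp1, Vegfa and Hif1a, with log2 changes of 0.55 to 1.84. The others that fell were the transcription factors Fos and Klf4, at -1.29 and -0.63. These 11 calls held in each alternative fitted. Many genes of this list also answer to other pathways, and several, such as Timp1 and Vegfa, are known TGF-β responses.

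The replicate 2 libraries decide the value of an immediate-early gene on this list, Junb, which is named because of that difference. Junb was at 36.9, 7.88 and 27.4 FPKM in Control and at 125, 1.23 and 125 FPKM with TGF-β1. It was not called in all 6 libraries (log2 change 0.63, limma adjusted p 0.773), whereas within replicates 1 and 3 its log2 change was 1.95 (limma adjusted p 0.00484). Without TGF-β1 replicate 2 it was 2.57 (0.026), and without TGF-β1 replicate 1 it was -0.34 (0.895). Cebpd was at 19.0, 5.24 and 17.7 FPKM in Control and 9.93, 2.42 and 6.48 FPKM with TGF-β1. It was called with the replicate number as a block (log2 change -1.02, limma adjusted p 0.00528) but not without it (0.2), and within replicates 1 and 3 its log2 change was -1.09 (0.027). Within replicates 1 and 3, 9 genes of the list rose and 4 fell.

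Acute-phase genes are classical targets of IL-6 in the liver. Of the 15 with a row, 9 were called downwards, 0 upwards and 6 were not called in the limma fit without the filter, against 16.0% of all rows called downwards, and the median log2 change of the 15 was -1.001. Of the 9, Lcn2 was under the filter. Its call was lost within replicates 1 and 3, without Control replicate 3 and without any single TGF-β1 library. The 6 that were not called lay at low levels, and 3 of the 15 had a positive change. Of the list, 8 genes passed the filter and all 8 were called downwards (median -2.18), but 6 of the 8 passed it only through the Control libraries, so their direction was largely set by the filter. Complement C3 was at 31.4, 42.3 and 39.3 FPKM in Control and at 0.037, 0.060 and 0.131 FPKM with TGF-β1 (log2 change -5.16, SE 0.129, limma adjusted p 4.41e-06). Hp (haptoglobin) was at 11.5 to 18.4 FPKM in Control, at 0.0797 and 0.0865 FPKM in TGF-β1 replicates 1 and 2 and at a listed 0 in replicate 3 (log2 change -3.94, limma adjusted p 2.66e-05). The smallest change of the 8 was that of Hpx (hemopexin), at -1.001.

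**Figure D4:**
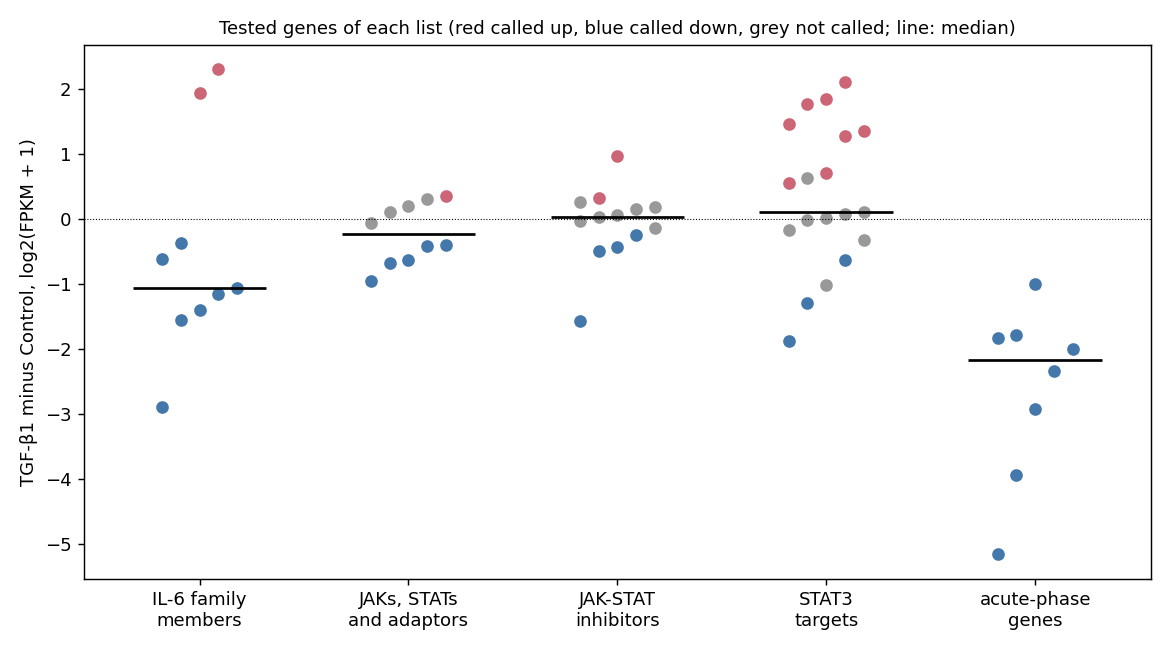
Change in log2(FPKM + 1) with TGF-β1 (vertical axis) of each tested gene in 5 lists, in red where called upwards, blue where called downwards and grey where not called, with a line at the median of the list. The medians are -1.06 for the members, -0.24 for JAKs, STATs and adaptors, 0.04 for inhibitors, 0.10 for STAT3 targets and -2.18 for acute-phase genes. Of the 8 acute-phase genes drawn, 6 passed the filter only through Control, so their direction was largely set by the filter. Without the filter the median of the 15 acute-phase genes with a row was -1.001.

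The sheddases that release soluble receptors were also read. Adam17 was at 10.5 ± 1.61 FPKM in Control and 15.5 ± 2.61 FPKM with TGF-β1 (log2 change 0.53, SE 0.157, limma adjusted p 0.033). This call was lost in 8 of 18 alternatives, with limma adjusted p of 0.0202 to 0.199 over all of them. Among the 8 were the fit within replicates 1 and 3 and those without Control replicate 2, Control replicate 3, TGF-β1 replicate 1 or TGF-β1 replicate 2. Adam10 was at 50.7 ± 4.41 and 45.8 ± 1.097 FPKM and was not called (limma adjusted p 0.216). It was called downwards in 2 of 18 alternatives, at a lowest limma adjusted p of 0.0127. These were scaling to the sum of protein-coding rows and removal of the GC and length trend, and Adam17 was called in neither.

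Genes with the most similar pattern were sought for the member with the largest rise and the one with the largest fall, by the root mean square difference of log2(FPKM + 1) over the 6 libraries after subtracting the Control mean. Nearest to Il11 were Tnfrsf12a (0.152), Mn1 (0.157) and Whrn (0.161), with log2 changes of 2.19, 2.26 and 2.24. Nearest to Osmr were Npnt (0.0341), Clip4 (0.0749) and Mylk (0.116), with log2 changes of -2.88, -2.94 and -3.04. Log2 changes close to those of Il11 and Osmr follow from choosing rows by this distance.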

How the data were processed

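RNA of 3 Control and 3 TGF-β1 samples was sequenced. The authors mapped clean reads to mm9 with TopHat (TopHat2 2.0.11 per the submitters' processing notes) and deposited FPKM values from Cufflinks, a column for each library, and no further scaling was described. The annotation, and whether strand was used, were not given in the sources used here. Counts were not used here, so log2(FPKM + 1) was tested.

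The labels gave each library's group and replicate number. Of 19730 rows, 19699 were found by transcript identifier in GENCODE M1 (NCBIM37, the same assembly as mm9). Whether a row holds a gene or only the transcript named is not stated. Depth was recovered from 738 to 807 single-transcript genes per library, whose values were whole multiples of 1 fragment, within 0.1 fragments, in 99.5% to 99.9% of cases at a fragment length of 200 nt, against 22.8% to 26.4% for jittered values. Fragment numbers are approximate and cover counting error only.

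Rows with a mean of at least 1 FPKM were fitted with limma 3.58.1 in R 4.3.3 (lmFit, eBayes with a mean-variance trend), two-sided, with Benjamini-Hochberg adjustment over all tested rows. Rows under the filter were taken from the same fit without it. In simulated data, 200 of 11898 rows were changed, with noise drawn independently for each library. Of rows changed by 1 on the log2 scale 74% were recovered, of rows changed by 2 90%, and 5.20% of calls were false. In the real fit 48.1% of rows were called and the replicate 2 libraries deviated together, so these rates need not hold there. The members and lists were chosen with earlier results of these data known. Named genes were the members, other family ligands and receptors, the JAK kinases, the 2 largest called changes of each other list, known TGF-β responses and the 3 rows most like Il11 and Osmr. Junb, Cebpd, Socs1, Adam10 and the further called genes of each list were named after their values were seen. Some genes under this rule are not reported here.

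Same-numbered libraries deviated together, with correlations across 10791 genes of 0.21, 0.418 and 0.152 for replicates 1, 2 and 3. The main fit and the permutation test held no replicate term. The replicate number was used as a block only in an alternative fit, on the evidence of the data alone. Control 1 with TGF-β1 3 (0.201) and Control 3 with TGF-β1 1 (0.127) came close, so the data set replicate 2 apart but do not single out pairs 1 and 3. Python 3.11.15, numpy 2.4.6, pandas 2.3.3 and matplotlib 3.10.9 were used. Alternatives covered the pseudocount, filter, scaling, replicate block, batch term, trend, threshold, single libraries left out and, chosen after seeing the data, removal of the GC and length trend.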

Additional observations from a re-analysis of the deposited data

How the results depend on the processing

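The members Il6, Il11, Lif, Il6st, Lifr, Osmr, Il11ra1, Stat3 and Socs3 kept their direction and their call in every alternative that could be fitted, and Clcf1 kept its direction only. The replicate block called 8 members and changed no other member's call, the GC and length correction (chosen after seeing the data) also left 8, and single libraries left out gave 8 to 9. The numbers of changed genes were 5391 with the replicate block and 4419 to 5446 with a library left out. At an adjusted p under 0.01 there were 3672 changed genes, 1 other family ligand and 0 sheddases. Without the filter 2 other family receptors and 0 sheddases were called, with a mean of at least 3 FPKM 5 acute-phase genes, within replicates 1 and 3 0 sheddases, and with the GC and length trend removed 2 inhibitors. Leaving out a library gave 1 to 2 other family ligands and 0 to 1 sheddases. A stricter threshold lowers counts by construction, and a stricter filter leaves fewer rows to test. Fewer libraries moved counts both ways. Within replicates 1 and 3, 4195 genes were called in place of 5721, but 13 STAT3 targets in place of 11. The cause of the other shifts was not tested. The difference between Il6st and Lifr changed by 0.50 with a pseudocount of 0.1, the reverse of its main sign. Scaling to the sum of protein-coding rows moved the median change of all genes by -0.17 and the split of calls to 2015 up and 3927 down, against 2911 and 2810, with each member keeping its direction. With 3 libraries per group, and Il6 and the Control level of Il11 at under 25 fragments, small changes are not resolved at this depth.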
